A study of Mus musculus with 2 samples.

Results

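The miR-26 family of the mouse consists of 3 hairpin genes, Mir26b, Mir26a-2 and Mir26a-1, and its level was measured in whole fetal liver. The members were taken by gene name, as the 3 rows of the deposited count tables whose versionless Ensembl identifiers carry these names in GENCODE, out of 1973 miRNA gene rows. Both libraries belong to 1 group, liver of B6NCrl mouse embryos at embryonic day 16.5, with males and females pooled, healthy, and with no treatment or mutation named in the labels. Replicate 2 was a pool from 41 embryos, and replicate 1 was a pool of unstated size. There is no second condition, so the questions are how high each member stood, how the members compare with each other and with their relatives, and how far the 2 pools differed.

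MicroRNAs are cut from hairpin precursors, and 1 or both arms of the stem (the 5p and 3p arms) are loaded into Argonaute. Bases 2 to 8 of the mature RNA, the seed, pair with messenger RNAs, which are then repressed. The 3 miR-26 genes sit in introns of the 3 genes for small C-terminal domain phosphatases, Ctdsp1, Ctdsp2 and Ctdspl, which act on RNA polymerase II and on the retinoblastoma protein. In mouse models of liver cancer, delivery of miR-26a slows tumour growth, and cyclins D2 and E2 and the histone methyltransferase Ezh2 are among the known targets of the family.

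The mature arms are shown first because they decide which reads can be assigned to 1 gene. They are written 5′ to 3′ with the seed in capitals, from RefSeq on GRCm38.p6, and all 3 members matched.
miR-26b-5p: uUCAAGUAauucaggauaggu
miR-26a-5p: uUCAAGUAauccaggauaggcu
miR-26b-3p: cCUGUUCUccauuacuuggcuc
miR-26a-2-3p: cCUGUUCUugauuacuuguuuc
miR-26a-1-3p: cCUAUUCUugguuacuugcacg
The 5p arm of miR-26a is the same 22-base sequence in Mir26a-2 and Mir26a-1. The 5p arm of miR-26b has 21 bases and differs from it at 2 of the 21 positions compared, C11U and C21U (miR-26a base, position from the 5′ end, miR-26b base), both outside the seed. All 3 genes therefore carry the seed UCAAGUA in the 5p arm, and among 1501 mature arms of the 916 listed genes with a mature sequence in the RefSeq table no other gene did. The 3p arms are distinct in all 3 genes. From miR-26a-1-3p to miR-26a-2-3p they differ at 6 of 22 positions, by A4G, G11A, C19U, A20U, C21U and G22C, of which A4G changes the seed. The 3p arms of Mir26a-2 and Mir26b share the seed CUGUUCU, which Mir6932 and Mir7039 also carry.

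The whole hairpins show how far the identity reaches. Capitals mark the longest stretch common to the 2 Mir26a hairpins and, in Mir26b, its own 5p arm.
Mir26b: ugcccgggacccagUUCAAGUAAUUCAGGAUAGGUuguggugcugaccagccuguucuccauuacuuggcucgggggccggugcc
Mir26a-2: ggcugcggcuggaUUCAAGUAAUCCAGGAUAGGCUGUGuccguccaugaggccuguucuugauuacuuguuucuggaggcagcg
Mir26a-1: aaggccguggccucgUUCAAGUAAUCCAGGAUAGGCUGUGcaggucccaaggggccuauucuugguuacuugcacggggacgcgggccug
The common stretch of the 2 Mir26a hairpins has 25 bases and begins at the first base of the 5p arm. A read of the 5p arm must run 4 bases past the end of the mature RNA, or start 1 base before it, to match only 1 of the 2 hairpins. Matches elsewhere in the genome were not examined. The longest stretch that Mir26b has in common with either Mir26a hairpin is 10 bases with Mir26a-2 and 11 with Mir26a-1. Over the whole length Mir26a-2 and Mir26a-1 were identical at 72.5% of alignment columns, Mir26b and Mir26a-1 at 68.8% and Mir26b and Mir26a-2 at 66.0%. The predicted minimum free energies were similar, at -43.5 kcal/mol for Mir26b (85 bases), -44.5 for Mir26a-2 (84 bases) and -49.4 for Mir26a-1 (90 bases).

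**Figure D1:**
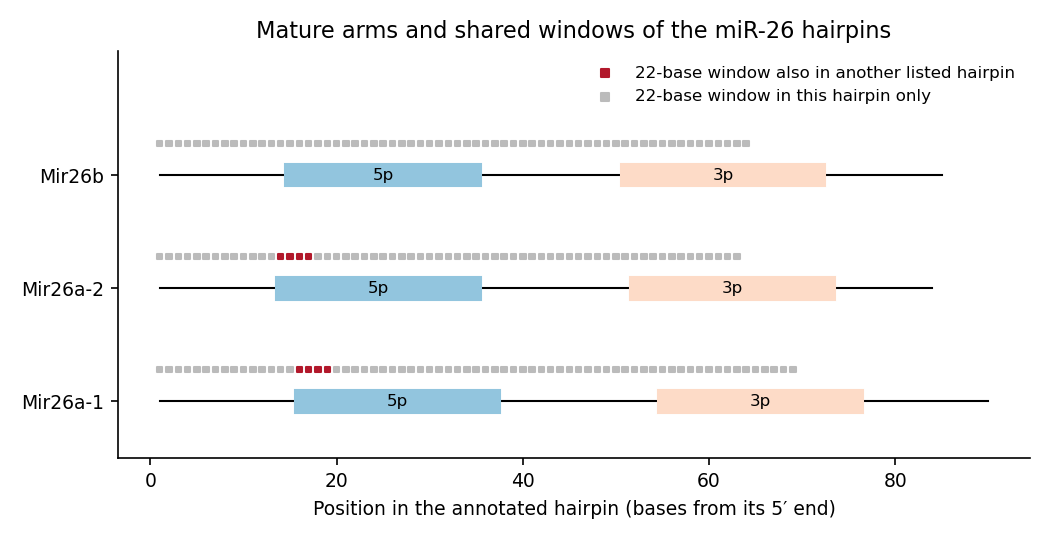
Each black line is 1 annotated hairpin drawn to its length in bases, with its mature 5p and 3p arms as boxes. Each small square is a 22-base window placed at its first base, red where the same bases occur in another listed hairpin and grey where they do not. The 4 red windows of Mir26a-2 and the 4 of Mir26a-1 begin at or just after the start of the 5p arm, and Mir26b has none.

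Of the 22-base windows in each hairpin, 4 of 63 in Mir26a-2 and 4 of 69 in Mir26a-1 occurred in the other Mir26a gene, and 0 of 64 in Mir26b occurred in any listed hairpin. With 18-base windows the numbers were 8 of 67, 8 of 73 and 0 of 68. The mature 5p arm itself is the first of the shared windows in both Mir26a genes. Reads that match several places are kept in a separate multimapping tally of the deposited tables, which is not split by miRNA. That tally held 28.2% of 12186088 reads in replicate 2 and 28.1% of 14129766 reads in replicate 1. The counts are per hairpin, so the arm a counted read came from is not recorded.

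All 3 members lie on the plus strand of mm10, in the sense orientation of their hosts. Mir26b has the identifier ENSMUSG00000065468.1, and its hairpin spans bases 74394310 to 74394394 of chromosome 1, in intron 4 of the 6 introns of Ctdsp1. That intron is 564 bases long, and the hairpin begins 234 bases after the exon before it. Mir26a-2 (ENSMUSG00000065430.1) lies on chromosome 10 at 126995530 to 126995613, in intron 5 of the 7 introns of the long Ctdsp2 transcript, an intron of 1946 bases. Its last base is also the first base of exon 1 in the shorter Ctdsp2 transcripts, an overlap of 1 base. Mir26a-1 (ENSMUSG00000065513.1) lies on chromosome 9 at 119031796 to 119031885, in intron 5 of the 7 introns of Ctdspl, an intron of 3283 bases. The only other listed miRNA gene inside a host is Mir546 in Ctdsp2, which had 0 counts in both libraries. The level of 3 counts, which a count of 0 allows, was 0.588 CPM in replicate 2, against 0.506 CPM in replicate 1. CPM are counts scaled to a fixed sense-strand total over all miRNA gene rows, and that total was 5102289 counts in replicate 2, against 5930074 in replicate 1.

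Mir26b was among the most abundant miRNA genes of the fetal liver, while the 2 Mir26a genes had few counts of their own. Mir26b had 281092 counts in replicate 2 and 302192 in replicate 1, or 55091 and 50959 CPM. Its mean of 53025 ± 2922 CPM (SD, n = 2) placed it at rank 3 of 1973 by assigned counts, a ranking that leaves out multimapping reads. Mir26a-2 had 221 counts in replicate 2 and 230 in replicate 1, a mean of 41.0 ± 3.20 CPM at rank 218. Mir26a-1, the lowest of the 3, had 37 and 41 counts in replicates 2 and 1, a mean of 7.08 ± 0.24 CPM at rank 291. The order Mir26b, Mir26a-2, Mir26a-1 held in both libraries, and no ranges of the 3 members overlapped. Because whole tissue was used, fewer cells that make a miRNA and less of it per cell cannot be told apart.

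**Figure D2:**
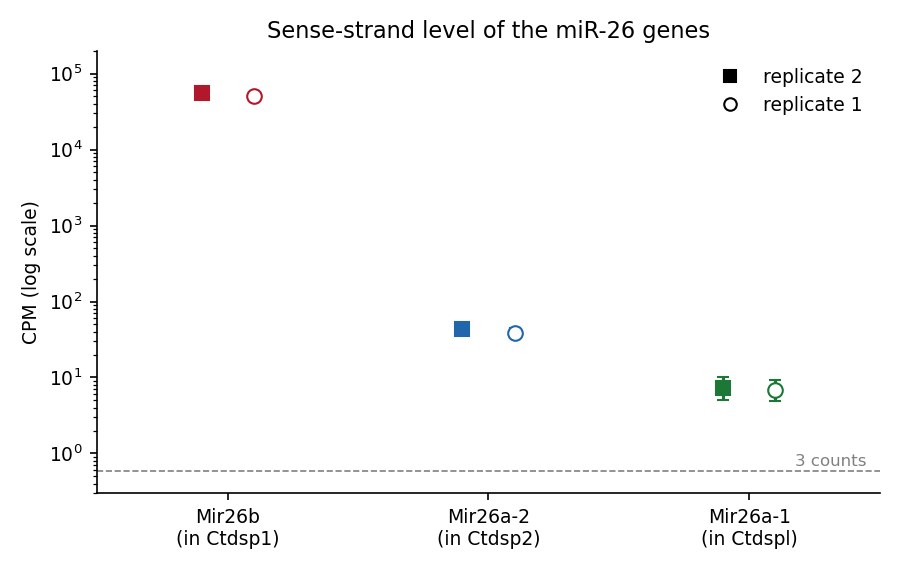
The 3 miR-26 genes are on the x axis with their hosts, and the sense-strand level is on the y axis in CPM (log scale), with filled squares for replicate 2 and open circles for replicate 1. Bars are 95% Clopper-Pearson intervals, mostly smaller than the symbols, and the dashed line is the level of 3 counts. Mir26b stood at 55091 CPM in replicate 2, against 50959 CPM in replicate 1, and both Mir26a genes stood below 50 CPM in both libraries.

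The 3 genes together held 5.31% ± 0.29 of the assigned sense-strand counts (SD, n = 2), with 5.51% in replicate 2 and 5.10% in replicate 1. Any miR-26a-5p reads in the multimapping tally are left out, so this is not the share of mature miR-26. The 95% Clopper-Pearson intervals were 5.49% to 5.53% for replicate 2, against 5.08% to 5.12% for replicate 1. Mir26b made up 99.9% of the family's assigned counts in both libraries. The 2 Mir26a genes together had 258 counts in replicate 2 and 271 in replicate 1, which is 0.0918% and 0.0897% of the Mir26b count. Counts may include PCR copies, so these intervals cover counting error only.

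The count of Mir26b was 1269-fold (replicate 2) and 1311-fold (replicate 1) that of Mir26a-2, a log2 ratio of 10.33 ± 0.03 (SD, n = 2). It exceeded Mir26a-1 by 7496-fold and 7282-fold in replicates 2 and 1 (log2 12.85 ± 0.03). Counted reads are whole small RNAs, so these ratios are per hairpin. Per base of hairpin, the log2 ratios were 10.32 and 12.93. The SDs describe how closely the libraries matched and do not cover a bias that both share. With 2 libraries an exact two-sided sign-flip test cannot give a p below 0.5, so none is given. Low production of miR-26a and loss of its 5p reads to the multimapping tally cannot be told apart from these counts, and the ratios are ratios of assigned counts, not of mature miR-26b to miR-26a. The Mir26b count was smaller than the multimapping tally, 12.2-fold in replicate 2, against 13.1-fold in replicate 1.

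Between the 2 Mir26a genes, Mir26a-2 was the higher. It exceeded Mir26a-1 by 5.91-fold in replicate 2 (log2 2.56, counting SE 0.25) and by 5.55-fold in replicate 1 (log2 2.47, counting SE 0.24). Of the counts of both genes, Mir26a-2 held 85.7% in replicate 2 (exact binomial interval 80.8% to 89.7%), against 84.9% in replicate 1 (80.0% to 88.9%). These counts come from reads assigned to 1 hairpin, and how the shared 5p arm is divided between the genes was not measured.

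No member had a count on the other strand in either library. Of 60 genes with 10000 or more sense-strand counts in each library, 47 likewise had 0 other-strand counts in both, so Mir26b was like most of these 60. Among the genes nearest to Mir26b in rank, Mirlet7g also had 0 in both libraries. Mir122 had 4 in replicate 2 and 2 in replicate 1, Mir126a 99 and 70, and Mir335 3 and 1.

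In the order of levels, Mir26b stood between the same neighbours in both libraries. Above it stood Mirlet7g, a let-7 family member, with 58975 CPM in replicate 2, against 57708 CPM in replicate 1. Mir26b reached 0.934-fold of Mirlet7g in replicate 2 and 0.883-fold in replicate 1. Below it stood Mir126a, the endothelial miRNA, which Mir26b exceeded 1.13-fold in replicate 2, against 1.12-fold in replicate 1. With library totals as the scale, the range of Mir26b overlapped with neither. It also did not overlap with that of Mir122, the hepatocyte miRNA at rank 1 with 21.4% of the counts in this labelled liver tissue. Nor did it overlap with that of Mir335, an imprinted miRNA at rank 5 (31057 ± 2958 CPM). With TMM scaling of the libraries, the range of Mir26b overlaps those of Mirlet7g and Mir126a. The order within each library does not depend on the scaling.

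The neighbours of the Mir26a genes could not be separated from them. Around Mir26a-2 stood Mir208b (44.3 ± 10.5 CPM, SD, n = 2), a myosin-hosted muscle miRNA, and Mir326 (42.6 ± 14.2 CPM), then Mir137 (39.4 ± 19.4 CPM), a neural miRNA, and Mirlet7c-1 (38.9 ± 0.67 CPM). Around Mir26a-1 stood Mir3064 (7.55 ± 0.42 CPM) and Mir138-1 (7.37 ± 2.32 CPM), then Mir302b (7.08 ± 1.91 CPM), of the pluripotency cluster, and Mir6539 (7.06 ± 1.94 CPM). The ranges of all 8 overlapped with that of the Mir26a gene they stood next to.

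**Figure D3:**
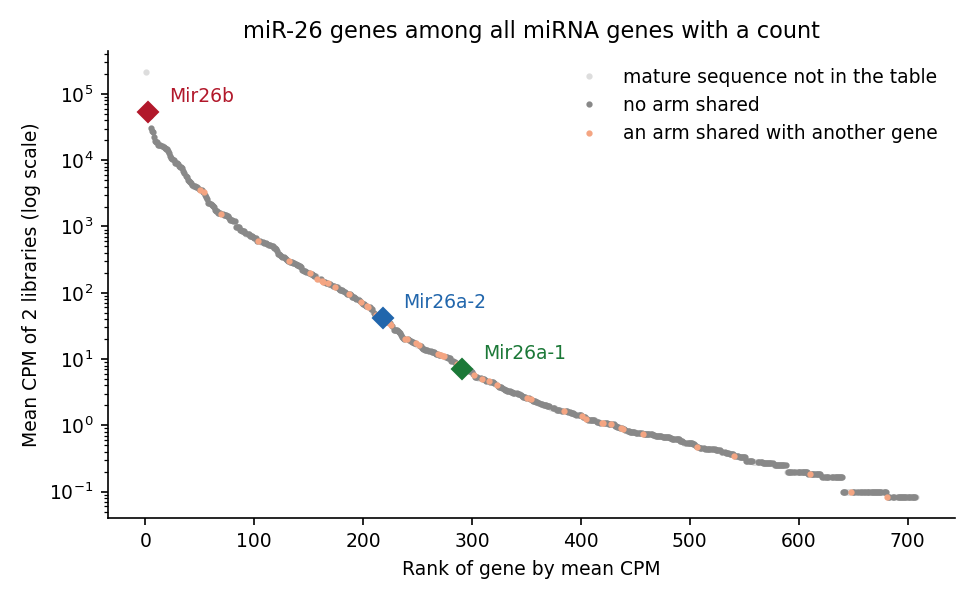
Every miRNA gene with a count is drawn by its rank (x axis) and its mean level in 2 libraries in CPM (y axis, log scale). Orange points have a mature arm identical to that of another listed gene by the RefSeq table (Mirlet7a-2 is grey), grey points have none, and the palest points have no mature sequence in the RefSeq table. Mir26b is at rank 3, Mir26a-2 at rank 218 and Mir26a-1 at rank 291, and no orange point reaches 10000 CPM.

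The Mir26a genes belong to a class of 81 listed genes in which at least 1 mature arm is identical to that of another listed gene, going by the arms the RefSeq table lists for each gene. This class held 1.09% ± 0.03 of the sense-strand counts (SD, n = 2), and 0 of its 81 genes reached 10000 CPM, against 24 of 835 genes with no shared arm, Mir26b among them. At 100 CPM the shares were 13.6% of the class with a shared arm and 18.6% of the genes without one. The other 1057 rows had no mature sequence in the table and were not classed. The table lists no 5p arm for Mirlet7a-2, so that gene (180 CPM) counts as unshared here although its hairpin holds the let-7a 5p arm. With every gene whose hairpin holds an arm of another gene included, also those with no arm of their own in the table, the class had 321 genes with 1.11% ± 0.03 of the counts, and again 0 reached 10000 CPM. The comparison is a description, since genes are not replicates and which miRNAs have several copies is fixed by the genome.

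The same layout, an arm carried by several genes beside a relative of the same seed carried by 1, was compared in other sets of genes. These were the 6 other such sets with the highest levels, of which 2 are of the let-7 family. Here a gene carries an arm if its hairpin holds it, which brings in Mirlet7a-2. In the let-7 family, Mirlet7a-1, Mirlet7a-2, Mirlet7c-1 and Mirlet7c-2 summed to 450 CPM against 58341 CPM of Mirlet7g (log2 -7.02). Mir30c-1 and Mir30c-2 summed to 134 CPM against 18829 CPM of Mir30e (log2 -7.13), and Mir125b-1 and Mir125b-2 to 209 CPM against 2035 CPM of Mir351 (log2 -3.28). Mir16-1 and Mir16-2 summed to 4167 CPM against 19579 CPM of Mir322 (log2 -2.23). Mirlet7a-1 and Mirlet7c-2 of the same let-7 set also have an identical 3p arm, whose seed Mir98 carries in its own 3p arm. Over whole hairpins, since arms are not counted apart, these 2 genes summed to 231 CPM against 4722 CPM of Mir98 (log2 -4.35). Of these 6, only in the miR-92 family did the genes with the shared arm sum to more, 3407 CPM for Mir92-1 and Mir92-2 against 716 CPM of Mir25 (log2 2.25).

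The genes with the shared arm were thus below their highest relative in 5 of these 6 sets, which are not independent. The let-7 sets have Mirlet7a-1 and Mirlet7c-2 in common. In the miR-26 family the distance was wider than in all 6, with 48.1 CPM for both Mir26a genes against 53025 CPM of Mir26b (log2 -10.11). The order rests on means of 2 libraries, and no test was made across sets. How many reads of each set lie in the multimapping tally was not measured.

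**Figure D4:**
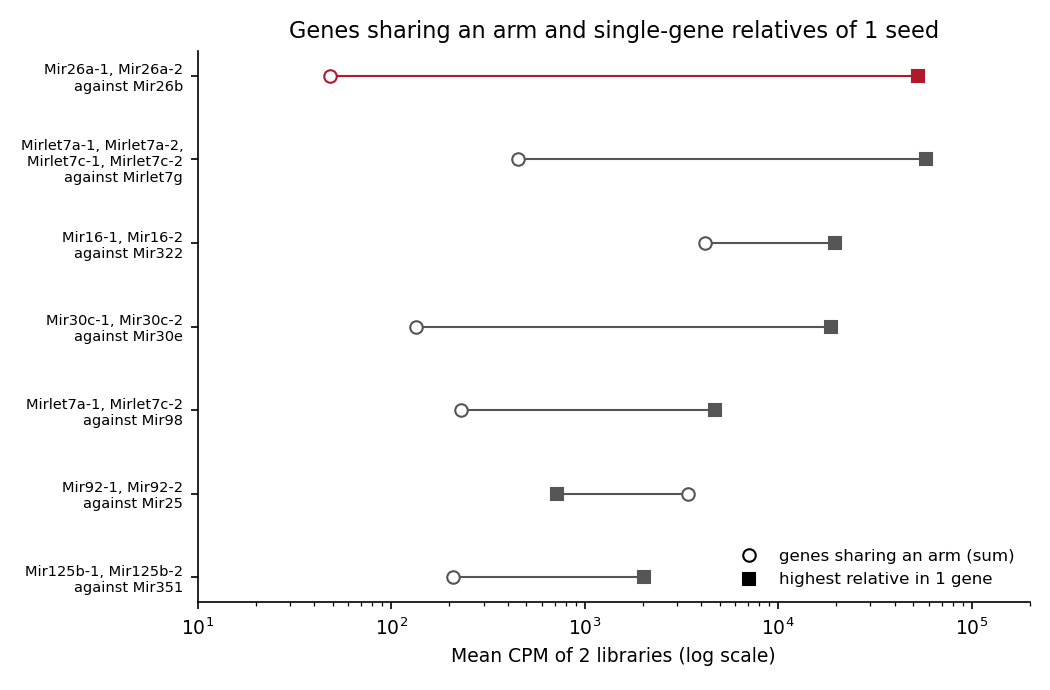
Each row is a set of genes that share a mature arm (open circle, summed mean level) and the highest relative of the same seed found in 1 gene (filled square), in CPM on a log axis. The miR-26 row, in red, spans 48.1 to 53025 CPM, and the miR-92 row is the one in which the circle lies right of the square.

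The miR-26 family was next set beside miRNAs known to repress the same kinds of target. Of the 6 listed miRNAs reported to repress Ezh2, all stood below Mir26b. At rank 3 of 1973, Mir26b stood above nearly every row, so this would hold for almost any list. Mir101b, the highest, had 7757 ± 588 CPM (SD, n = 2), which Mir26b exceeded by 6.84-fold. Mir98 had 4722 ± 491 CPM and Mir214, a stromal miRNA, 709 ± 151 CPM. Mir101a had 87.2 ± 4.39 CPM, and the 2 miR-138 genes, which share an arm with each other, had 16.3 ± 3.53 CPM (Mir138-2) and 7.37 ± 2.32 CPM (Mir138-1). Together they made up 1.33% ± 0.09 of the counts, and 3 of the 6 stood at 100 CPM or more, beside 183 of all 1973 rows. The order depends on which genes are listed. Mir98 shares a seed with Mirlet7g, which is not on the list and stood above Mir26b in both libraries. Mirlet7g had 58975 CPM in replicate 2, against 57708 CPM in replicate 1. The other genes with that seed stood below Mir26b.

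Of the 10 listed miRNAs reported to repress G1 cyclins and their kinases, all again stood below Mir26b, as nearly every row did. Of the 10, 7 reached 100 CPM, beside 183 of all 1973 rows. Mir322, the mouse form of miR-424, led with 19579 ± 1064 CPM and was exceeded by Mir26b by 2.71-fold. Mir15a followed with 8882 ± 81.1 CPM, Mir16-1 with 3567 ± 114 CPM and Mir15b with 2264 ± 584 CPM. Mir16-2 had 600 ± 79.4 CPM, Mir503 431 ± 41.9 CPM and Mir195a 189 ± 25.3 CPM. The p53-induced miR-34 genes were low, with Mir34c at 65.3 ± 4.11 CPM, Mir34a at 60.4 ± 3.08 CPM and Mir34b at 3.19 ± 1.46 CPM. The list held 3.56% ± 0.14 of the assigned counts, less than Mir26b alone in both libraries. No gene with the seed that Mir98 and Mirlet7g share is on this list, so the order and the share hold for the listed genes only. Mir16-1 and Mir16-2 share an arm with each other, and any reads of it in the multimapping tally are left out of this share.

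Between the 2 pools, Mir26b differed past the test and the Mir26a genes did not pass it. Each gene was tested with a two-sided exact binomial test of its counts against the library totals, with Benjamini-Hochberg adjustment over all 440 genes with at least 10 counts over both libraries, a filter that all 3 members passed. It is a test that compares these libraries and covers counting error only. Mir26b was higher in replicate 2 by 1.08-fold (log2 0.11, counting SE 0.004; exact binomial adjusted p = 6.92e-193). Mir26a-2 had a log2 ratio of 0.16 (counting SE 0.14; exact binomial adjusted p = 0.397) and Mir26a-1 of 0.07 (counting SE 0.33; exact binomial adjusted p = 0.972). Of the 3 members, 1 thus passed the test, beside 44.5% of all genes tested (196 of 440). Of all genes tested, 17.5% were higher (77) and 27.0% lower (119) in replicate 2 past the test. With TMM or DESeq2 scaling the numbers were 98 higher and 97 lower.

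How the Mir26b difference ranked among those of other genes depended on the scaling. Among the 183 genes whose mean was at least 100 CPM, 69.9% had a larger absolute log2 ratio than Mir26b with library totals, against a median of 0.20. The log2 ratio of Mir26b became 0.19 with TMM scaling and 0.20 with DESeq2 scaling, and 49.7% and 49.2% of these genes then had a larger one, which places Mir26b at about the median of 0.19. At the common biological variation of the libraries (coefficient 0.229, edgeR), the SD of a log2 ratio between 2 libraries is 0.47, above the ratios of all 3 members. That coefficient was estimated from these same 2 libraries over genes of all levels with at least 10 counts, so it is not an independent measure. Markers of cell types differed between the pools by unlike amounts, with log2 ratios of 0.42 for Mir144 and 0.09 for Mir451a (erythroid). The ratios were 0.09 for Mir126a (endothelial), 0.06 for Mir223 (myeloid) and 0.01 for Mir122 (hepatocyte). Mir486, another erythroid miRNA, was lower in replicate 2 (log2 -0.66), so the erythroid miRNAs did not move together. The markers do not span the differences between the pools. Mir215 had a log2 ratio of 4.89, with 1920 counts in replicate 2 and 75 in replicate 1. Of all genes tested with library totals, 77 were higher and 119 lower in replicate 2 past the exact binomial test. The part of these miRNAs in the Mir26b difference was not tested.

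**Figure D5:**
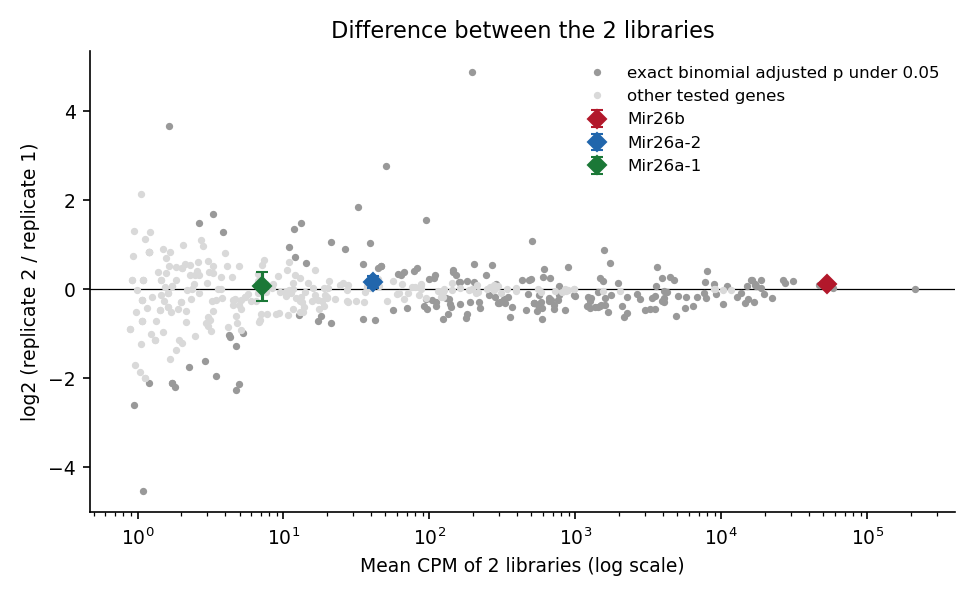
Each tested gene is drawn by its mean level in CPM (x axis, log scale) and its log2 ratio of replicate 2 over replicate 1 (y axis). Darker points passed the exact binomial test, and bars on the 3 miR-26 genes are counting SEs. With library totals as the scale the miR-26 genes lie at 0.11 for Mir26b, 0.16 for Mir26a-2 and 0.07 for Mir26a-1.

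Among the Ezh2-directed miRNAs, Mir101b and Mir98 were higher and Mir214 lower in replicate 2 past the test, with 3 of 6 called, near the 44.5% of all genes tested, and a median log2 ratio of 0.18 against -0.08 over all genes tested. With TMM or DESeq2 scaling 3 were higher, Mir138-2 being added, and 1 lower, beside 98 higher and 97 lower of the 440 genes tested. Among the G1 cyclin-directed miRNAs, 3 of 10 (Mir16-1, Mir16-2 and Mir503) were higher and 3 (Mir15b, Mir195a and Mir322) lower past the test, beside 17.5% higher and 27.0% lower over all genes tested, with a median of -0.04. With TMM or DESeq2 scaling 4 were higher, Mir15a being added, and 3 lower, beside the same 98 higher and 97 lower of all genes tested. The median was then 0.04 against 0.00 over all genes tested.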

How the data were processed

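Small RNAs in total RNA of 2 liver pools were sequenced, with replicate numbers from the description label. The authors deposited raw counts per miRNA gene for each library, without a header, on assembly mm10 with annotation M4 per the text description deposited with them. The program used for alignment and the one for counting were not given in the sources used here. Each table has 3 columns of counts, and the stranded one that the rule for the members names was used (sense strand). Totals and tests do not include the 4 tally rows.

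Names, positions and hairpins came from GENCODE M21 on the same assembly by versionless identifier (1894 of 1973 rows matched), and mature sequences from RefSeq (GRCm38.p6). Ratios used a pseudocount of 0.5. Genes with 10 or more counts over both libraries were tested (scipy 1.17.1, threshold 0.05). edgeR 4.0.16 gave TMM factors and the biological variation, DESeq2 1.42.0 gave size factors, and ViennaRNA 2.7.2 gave folding energies. An edgeR quasi-likelihood test could not be fitted within 1 group. The binomial test was tested on simulated data. The labels call the libraries biological replicates. Named genes were the members, the 2 genes next to each in rank on both sides, miRNA genes inside the hosts and genes with the same seed. Also named were both target lists, the 6 sets with a shared arm and, as a check of the tissue, 5 cell type markers. Mir486 and Mir215 were added after seeing the data. Mir101c, Mir497 and Mir497a were on the lists but are not analysed here. The members and lists were chosen with earlier results of these data known.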

Additional observations from a re-analysis of the deposited data

How the results depend on the processing

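The order of the 3 members was kept under all alternatives run. So was the direction of every ratio between members and of every member's ratio between the libraries. The median log2 ratio of the G1 cyclin-directed miRNAs changed sign, from -0.04 with library totals to 0.04 with TMM or DESeq2 scaling. The family share of 5.31% became 4.87% with counts irrespective of strand, 2.22% over all reads tallied and 6.75% without the most abundant gene in the total, and ranged from 5.10% to 5.51% with 1 replicate left out. Per base of hairpin, the log2 ratio of Mir26b over Mir26a-1 became 12.93 and that of Mir26a-2 over Mir26a-1 became 2.62. With 1 replicate left out these ratios ranged from 12.83 to 12.87 and from 2.47 to 2.56, and that of Mir26b over Mir26a-2 from 10.31 to 10.36. The share of counts in genes with a shared arm (1.09%) became 1.00% irrespective of strand, 1.11% by the hairpin rule and 1.39% without the most abundant gene, and ranged from 1.07% to 1.11% with 1 replicate left out. The number of genes that differed between the libraries lay between 183 and 206 in 6 alternatives, against 196. No paired analysis was possible because there is 1 group. Depth does not limit Mir26b, whereas Mir26a-1 rests on 78 counts over both libraries. The rank of the Mir26b difference and the list calls under TMM and DESeq2 scaling were chosen after seeing the data.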

Other observations

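The messenger RNAs of the hosts and of known targets were searched for the 7-base match to the miR-26 seed, TACTTGA, in the sense strand of the longest annotated 3′ untranslated region of each gene (GENCODE M21, GRCm38). The genes were chosen from background knowledge after the miRNA levels were known, and no messenger RNA was measured here. Of the 3 hosts, Ctdsp2 had 1 match in 3489 bases, and Ctdsp1 (1701 bases) and Ctdspl (3349 bases) had 0. Over the same length, 24.6% of the regions at least as long as that of Ctdsp2 hold a match. Ezh2 had 1 match in 402 bases (2.85% of regions over the same length), the cyclin gene Ccne1 1 in 531 bases (3.67%) and Ccne2 1 in 1681 bases (11.6%). Ccnd2 had 1 in 5173 bases (35.1%) and the cyclin-dependent kinase gene Cdk6 2 in 10217 bases (61.4%). Each percentage is of regions with 1 or more matches, and the share with 2 was not computed for Cdk6. The target genes were chosen as known targets, so the percentages do not test whether matches are more common in them. The sites in the host and in Ezh2 are shown with the match in capitals, and a match is a description of letters and not evidence of binding.
Ctdsp2 (chromosome 10): aagtgttgctctTACTTGAtt
Ezh2 (chromosome 6): ttgaataaagaaTACTTGAac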
